A study of Mus musculus with 8 samples.

Results

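The 10 cathepsins followed here were *Ctss*, *Ctsk*, *Ctsb*, *Ctsd*, *Ctsl*, *Ctsz*, *Ctsc*, *Ctsh*, *Ctsa* and *Ctsf*, taken by symbol from a table of 55401 genes. The list of cathepsin genes used here holds 23, each found in the same table. Bulk RNA-seq was performed on whole TA (tibialis anterior) muscles of 6-mo-old male mice, 4 WT and 4 *mdx5cv*. Both groups were on the C57/Bl6 background, and the only allele that the labels give as different was *mdx5cv*, a dystrophin mutation used as a mouse model of Duchenne muscular dystrophy. RNA was isolated with Trizol and made into stranded total RNA libraries. Values are normalized counts, that is, reads divided by a size factor of the library. The labels describe separate samples and do not say whether muscles shared a litter or a day, so p-values measure the spread between these muscles.

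Cathepsins are proteases of the lysosome, made as inactive precursors that are sorted to acidic compartments, often by mannose 6-phosphate receptors, and matured there by cleavage. Most are cysteine proteases of the papain family, whereas cathepsin D is an aspartic protease and cathepsin A a serine carboxypeptidase. They degrade proteins delivered by endocytosis and autophagy, process the invariant chain of MHC class II in antigen-presenting cells, and can be secreted to cleave extracellular matrix. Macrophages are rich in several of them, and muscle fibers and fibroblasts also express some, so a whole-muscle library holds transcripts from many sources. In such bulk samples, more cells of a type and more RNA per cell cannot be told apart.

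Of the 10 cathepsins, 8 were higher in *mdx5cv* muscles, 0 were lower, and 2 (*Ctsd* and *Ctsf*) did not pass the test (limma, adjusted p under 0.05). Over all 13677 genes tested, 20.9% were called higher and 20.1% lower (2854 and 2743 genes). With libraries set to equal totals these were 5444 and 820 genes, and *Ctsd* joined the 8 cathepsins called higher. All 10 passed the filter on low values. The median log2 fold change of the 10 cathepsins was 1.03, beside 0.00 over all genes tested. In 5 of them (*Ctss*, *Ctsk*, *Ctsh*, *Ctsz* and *Ctsb*) the call came with at least a doubling, a size that 10.3% of all genes reached upward. The groups did not overlap for any of the 8 higher cathepsins, a separation upward that 20.3% of all genes showed.

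Recovered reads per library ranged from 13175524 to 14921057, and the rarest cathepsin value rested on 15 reads. *Dmd*, the gene mutated in *mdx5cv*, averaged 6954 ± 857 normalized counts in WT and 3964 ± 388 in *mdx5cv* muscles (SD, n = 4 each). Its log2 fold change was −0.81 (SE 0.12, adjusted p = 0.000177), and it was lower in 4 of 4 *mdx5cv* muscles. The 7 mature fast fiber markers summed to between 671258 and 1091770 normalized counts in every muscle. Of these, 2 were called lower without overlap of the groups, *Ckm* (log2 fold change −0.75, adjusted p = 0.0227) and *Actn3* (−0.64, adjusted p = 0.0155), and 0 higher. Over the alternatives these adjusted p reached 0.187 and 0.111, and the *Ckm* call was lost without WT replicate 2 or 3 or *mdx5cv* replicate 1 (adjusted p from 0.0517 to 0.0653). One library stood apart in the cathepsin values: *mdx5cv* replicate 4 was the highest of its group for 9 of the 10 cathepsins and the lowest for *Ctsf*. It also had the highest summed level of macrophage markers (10818, against at most 5920 in the other *mdx5cv* muscles) and the lowest of mature fast fiber markers. It led its group as well in the sums of fibroblast, regenerating fiber, osteoclast, neutrophil and mast cell markers, but not of T and NK cell markers. Without it, 8 cathepsins were still called higher, and those with at least a doubling fell from 5 to 4 because *Ctsb* came to 0.93.

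**Figure D1:**
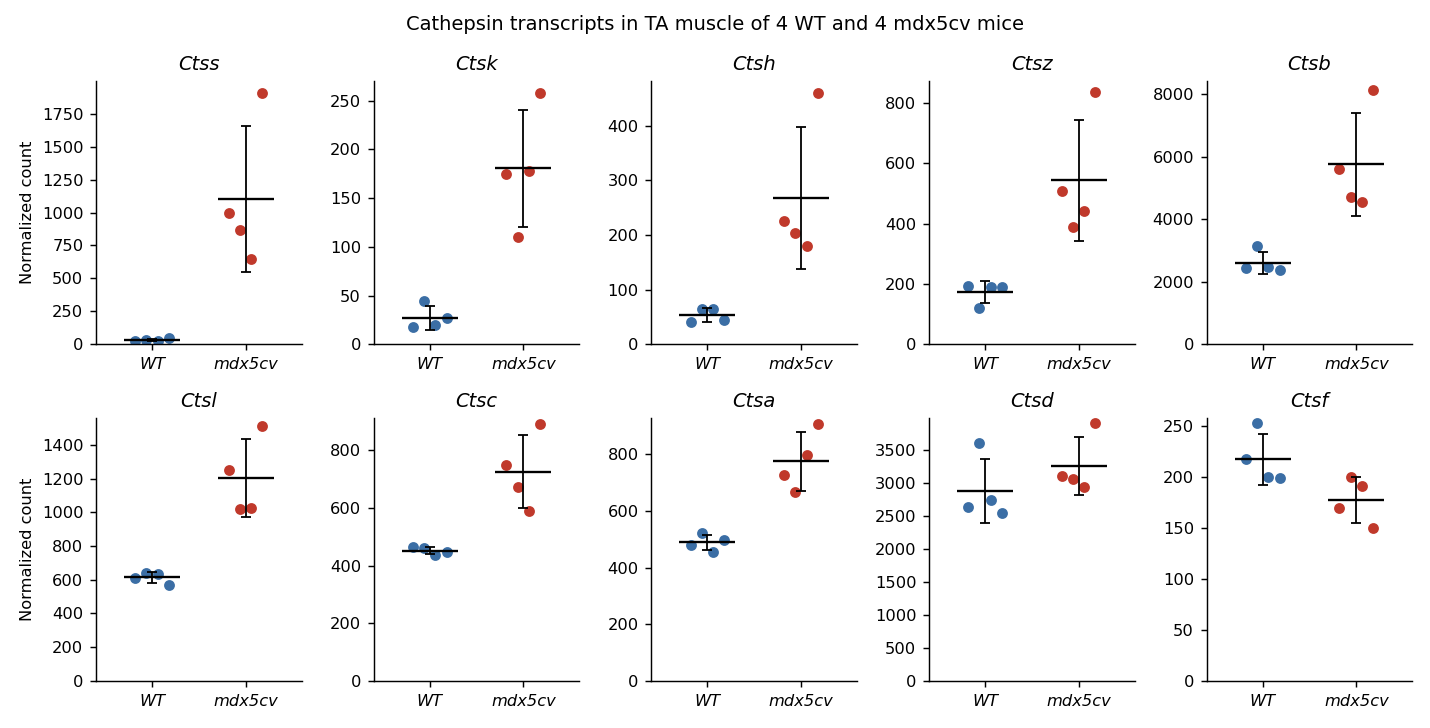
Normalized count of each of the 10 cathepsins (vertical axes, one scale per gene) in the 4 WT and 4 *mdx5cv* muscles. Points are muscles, horizontal lines are means and bars are SD; the 2 groups overlap only for *Ctsd* and *Ctsf*.

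The endopeptidases, which cut within a protein chain, held the largest rise. *Ctss*, which encodes cathepsin S, the protease of antigen-presenting cells that trims the invariant chain and stays active at neutral pH, was at 26.4, 29.6, 26.5 and 44.5 normalized counts in the 4 WT muscles and at 999, 867, 645 and 1905 in the 4 *mdx5cv* muscles. The lowest *mdx5cv* muscle lay far above the highest WT muscle, although replicate 4 alone was well above the rest of its group. The ratio of the means was 34.8, and the log2 fold change was 4.99 (SE 0.27, adjusted p = 1.71e-07). *Ctsk*, which encodes cathepsin K, a collagenase best known from osteoclasts and also made by fibroblasts, was at 17.2, 43.9, 19.9 and 26.5 in WT and at 175, 110, 178 and 258 in *mdx5cv* muscles. The groups did not overlap, and WT replicate 2 was the highest of its group. Its log2 fold change was 2.73 (SE 0.29, adjusted p = 1.47e-05), with a ratio of the means of 6.72.

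*Ctsb* and *Ctsl* rose less from higher levels. *Ctsb*, which encodes cathepsin B, a widely expressed enzyme that cuts both within chains and from their ends, was at 2426, 3137, 2478 and 2387 normalized counts in WT and at 5599, 4722, 4558 and 8124 in *mdx5cv* muscles. WT replicate 2 and *mdx5cv* replicate 4 were the high muscles, and the groups stayed apart. The log2 fold change was 1.11 (SE 0.17, adjusted p = 0.000223). *Ctsl*, which encodes cathepsin L, a broad endopeptidase present in most tissues, was at 610, 642, 637 and 567 in WT and at 1253, 1021, 1027 and 1513 in *mdx5cv* muscles. The WT muscles lay close together (614 ± 34.4, SD, n = 4), and each *mdx5cv* muscle was above them (1204 ± 233). The log2 fold change was 0.95 (SE 0.13, adjusted p = 8.73e-05).

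*Ctsf* was the member with a negative estimate. It encodes cathepsin F, a lysosomal cysteine protease, and was at 218, 253, 200 and 199 normalized counts in WT and at 170, 200, 192 and 150 in *mdx5cv* muscles. The groups overlapped narrowly, since *mdx5cv* replicate 2 was above the lowest WT muscle. Its log2 fold change of −0.29 (95% interval −0.57 to −0.01) missed the threshold after adjustment (adjusted p = 0.0930, and 0.0372 to 0.698 over the alternatives), and its sign depended on the scaling: with libraries set to equal totals it was 0.07.

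The exopeptidases *Ctsh*, *Ctsz* and *Ctsc*, which remove residues from chain ends, were all higher. *Ctsh*, which encodes the aminopeptidase cathepsin H, was at 40.1, 63.6, 64.1 and 44.5 normalized counts in WT and at 226, 203, 180 and 461 in *mdx5cv* muscles. Replicate 4 was again well above the other *mdx5cv* muscles, and the groups did not overlap. The log2 fold change was 2.24 (SE 0.26, adjusted p = 3.11e-05). *Ctsz*, which encodes cathepsin Z (also called X), a carboxypeptidase, was at 193, 118, 191 and 190 in WT and at 507, 390, 443 and 837 in *mdx5cv* muscles. WT replicate 2 was low and the other WT muscles lay close together, with each *mdx5cv* muscle above them. The log2 fold change was 1.61 (SE 0.22, adjusted p = 0.000103). *Ctsc*, which encodes cathepsin C, the dipeptidyl peptidase that activates serine proteases of immune cell granules, was at 464, 461, 436 and 448 in WT and at 751, 674, 592 and 891 in *mdx5cv* muscles. Its WT muscles were the most tightly grouped of the 10 cathepsins for their mean (452 ± 12.99, SD, n = 4). The log2 fold change was 0.67 (SE 0.12, adjusted p = 0.000825).

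The members outside the papain family differed from each other. *Ctsa*, which encodes cathepsin A, the protective protein that holds beta-galactosidase and neuraminidase 1 in a lysosomal complex, was at 481, 522, 457 and 497 normalized counts in WT and at 727, 666, 800 and 907 in *mdx5cv* muscles. The groups did not overlap, and the log2 fold change was 0.65 (SE 0.11, adjusted p = 0.000492). *Ctsd*, which encodes cathepsin D, the main aspartic protease of lysosomes, was at 2639, 3601, 2736 and 2536 in WT and at 3107, 3054, 2939 and 3910 in *mdx5cv* muscles. The groups overlapped because WT replicate 2 was above 3 of the 4 *mdx5cv* muscles. The log2 fold change was 0.18 (95% interval −0.10 to 0.47, adjusted p = 0.296). Equal totals, which moved the median of all genes from 0.00 to 0.36, brought *Ctsd* past the threshold (0.54, adjusted p = 0.0110), whereas without WT replicate 2 it came to 0.29 (adjusted p = 0.0572) and without *mdx5cv* replicate 4 to 0.09 (adjusted p = 0.599). Centring on the median also gave 0.09. Over all alternatives its adjusted p ranged from 0.0110 to 0.625.

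**Figure D2:**
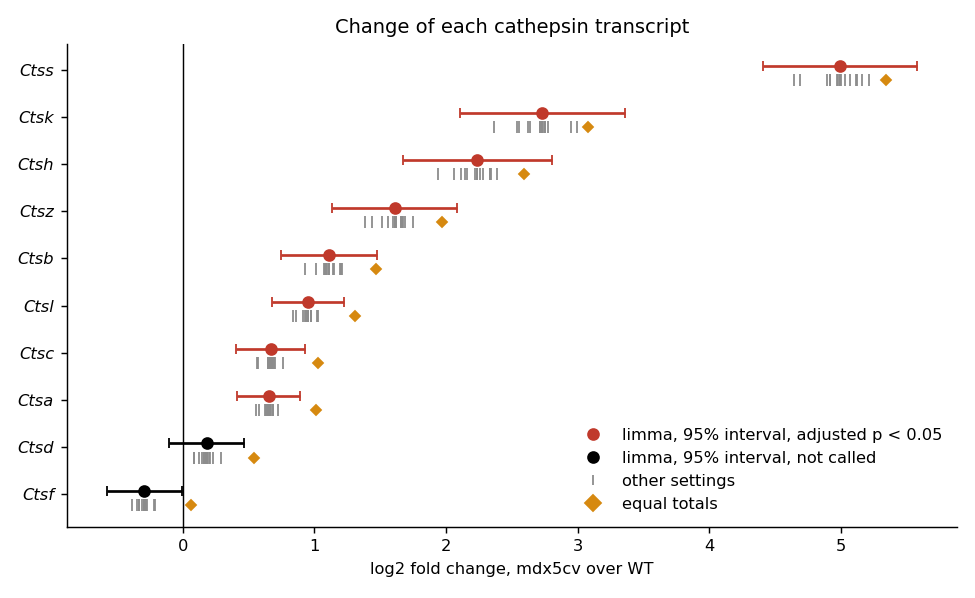
Log2 fold change of *mdx5cv* against WT for each of the 10 cathepsins (horizontal axis, log2 of normalized count + 1), with 95% intervals from limma; red marks called genes, black the others, ticks other settings and diamonds equal totals. *Ctss* lies at 4.99, the 8 called genes lie above 0, and the interval of *Ctsd* includes 0.

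The sizes of these changes were compared between the cathepsins, each pair by an exact permutation test of the per-muscle difference in log2 values (45 pairs, two-sided, 4 against 4 muscles, smallest possible p = 0.0286). In 38 pairs the changes differed (Benjamini-Hochberg adjusted exact p = 0.0338 for each). All 38 were at the smallest possible exact p, so it does not rank them. Pairs that share a cathepsin are not independent. *Ctss* changed more than every other cathepsin, by a log2 difference of 2.26 (SE 0.38) over the next, *Ctsk*. *Ctsa* changed more than *Ctsd* by 0.47 (SE 0.12). *Ctsz* changed more than *Ctsb* by 0.50 (SE 0.27), a difference of 0.24 without WT replicate 2, and *Ctsd* stood above *Ctsf* by 0.47 (SE 0.19), or 0.30 without *mdx5cv* replicate 4. No other difference among the 38 moved by over 1.5 times when 1 muscle was left out. A difference was not detected in 7 pairs. *Ctsk* exceeded *Ctsh* by 0.50 (SE 0.32, adjusted exact p = 0.205) and *Ctsz* by 1.12 (SE 0.46, adjusted exact p = 0.125). *Ctsh* exceeded *Ctsz* by 0.62 (SE 0.32, adjusted exact p = 0.153). *Ctsb* exceeded *Ctsl* by 0.16 (SE 0.098, adjusted exact p = 0.179), and both exceeded *Ctsa*, by 0.46 (SE 0.15) and 0.30 (SE 0.11), at an adjusted exact p = 0.0643. *Ctsc* and *Ctsa* were 0.01 apart (SE 0.12, adjusted exact p = 0.943).

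To set one cathepsin beside another, normalized counts were divided by the length of all exons in kilobases. In WT muscles *Ctsd* was first by this level per kilobase (1224 ± 208, SD, n = 4), then *Ctsb* (431 ± 58.7), *Ctsz* (120.0 ± 25.2), *Ctsa* (104 ± 5.83), *Ctsl* (94.6 ± 5.29), *Ctsc* (77.8 ± 2.24), *Ctsf* (43.2 ± 5.03), *Ctss* (23.4 ± 6.35), *Ctsk* (17.8 ± 7.93) and *Ctsh* (11.8 ± 2.80). Among these neighbours the muscles overlapped between *Ctsz* and *Ctsa*, *Ctsa* and *Ctsl*, *Ctss* and *Ctsk*, and *Ctsk* and *Ctsh*. In *mdx5cv* muscles the level per kilobase of *Ctss* was in the third place (813 ± 408), after *Ctsd* (1383 ± 189) and *Ctsb* (950.4 ± 272), and these 3 overlapped. *Ctsz* followed (378 ± 139), then *Ctsl* (185 ± 35.9), *Ctsa* (164 ± 21.97), *Ctsc* (125 ± 21.9), *Ctsk* (119 ± 40.0), *Ctsh* (59.5 ± 29.0) and *Ctsf* (35.3 ± 4.46). The neighbours that did not overlap were *Ctsz* and *Ctsl*, and *Ctsh* and *Ctsf*. The middle of the order depended on the length used. With the longest principal transcript in place of all exons, *Ctsc* was in the third place in WT (181) and *Ctss* in the ninth, while *Ctsd*, *Ctsb* and *Ctss* were again the first 3 in *mdx5cv* muscles.

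**Figure D3:**
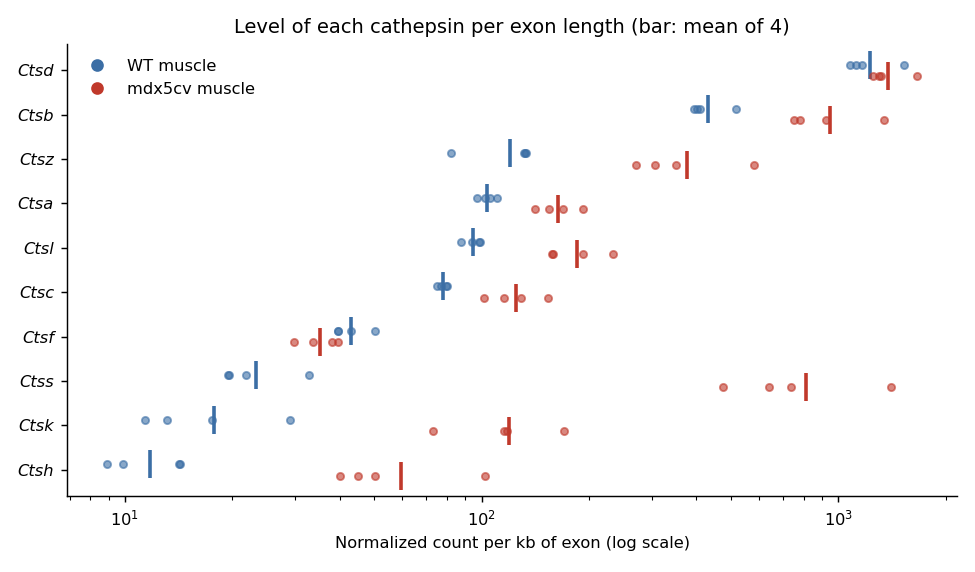
Normalized count per kilobase of exon for the 10 cathepsins in WT and *mdx5cv* muscles (log axis), with points for muscles and a bar at each mean. *Ctss* moves from a mean of 23.4 to 813, whereas *Ctsd* stays highest in both groups, at 1224 and 1383.

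The makeup of the cathepsin transcripts was described from the same values. Of the summed level per kilobase of the 10 cathepsins, *Ctsd* held 56.8% ± 2.51 in WT and 33.6% ± 3.91 in *mdx5cv* muscles (SD, n = 4 each). *Ctss* held 1.11% ± 0.371 in WT and 18.5% ± 4.10 in *mdx5cv* muscles, where single muscles were at 18.3%, 17.9%, 13.9% and 23.9%. The share of *Ctsb* went from 20.04% ± 0.272 to 22.5% ± 0.571, and that of *Ctsl* was 4.44% ± 0.384 and 4.46% ± 0.364. With the longest principal transcript the share of *Ctsd* was 51.4% in WT and 31.2% in *mdx5cv*, and that of *Ctss* 0.909% and 15.6%. The summed normalized count of the 10 cathepsins was 7543 ± 895 in WT and 13983 ± 3424 in *mdx5cv* muscles. Each share depends on the others, so no test was made of them.

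**Figure D4:**
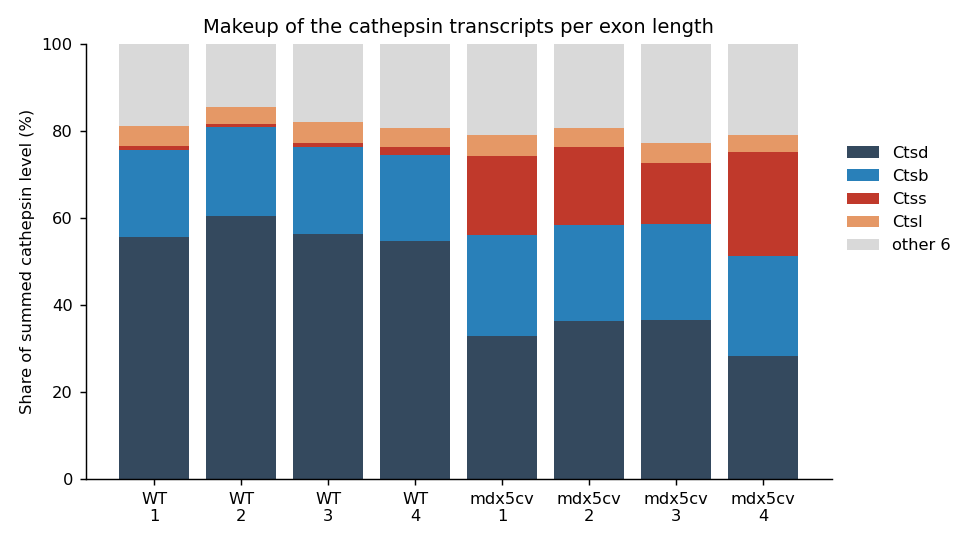
Shares of *Ctsd*, *Ctsb*, *Ctss*, *Ctsl* and the other 6 cathepsins in the summed normalized count per kilobase of the 10 cathepsins (vertical axis, percent), one stacked bar per muscle. The *Ctsd* share is lower in all 4 *mdx5cv* bars (mean 33.6% against 56.8%) and the *Ctss* share is higher (18.5% against 1.11%).

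*Ctss* and *Ctsk*, the 2 cathepsins with the highest point estimates, although *Ctsk* was not separated from *Ctsh* or *Ctsz*, lie side by side on chromosome 3 of the mouse genome (GRCm38, GENCODE M21). *Ctsk* spans chr3:95499256-95509362 and *Ctss* chr3:95526786-95556403, both on the plus strand, with 17423 bases and 0 whole genes between them. The other members lie on other chromosomes, apart from the pair *Ctsd* (chr7:142375911-142388038, minus strand) and *Ctsc* (chr7:88278085-88310888, plus strand) and the pair *Ctsz* (chr2:174427493-174439039, minus strand) and *Ctsa* (chr2:164832873-164841032, plus strand), whose genes are far apart. *Ctsb* is at chr14:63122462-63145923 (plus strand), *Ctsl* at chr13:64359337-64370890 (minus strand), *Ctsh* at chr9:90054152-90076089 (plus strand) and *Ctsf* at chr19:4855130-4860918 (plus strand).

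Promoter sequences from RefSeq (GRCm38.p6) were matched for 8 of the 10 cathepsins, with 9 start sites, and *Ctsb* and *Ctsh* had no entry. Each was searched, from 250 bases before to 50 bases after the start, for CACGTG, which reads alike on both strands, and for the longer TCACGTGA, which contains it and is the core of the element bound by TFEB and its relatives, regulators of lysosomal genes. CACGTG was found in 4 of the 9 promoters (*Ctsd*, *Ctsa*, *Ctsl* and *Ctsf*), beside 7.15% of 32851 promoters in the table, and TCACGTGA in 2 (*Ctsd* and *Ctsa*), beside 0.974%. The promoters of *Ctss*, *Ctsk*, *Ctsz* and *Ctsc* held neither, which says only that these letters are not in the window. The 4 sequences shown set the 2 neighbouring genes beside the 2 genes with the longer motif, one called higher and one not. They run 5′ to 3′ from 250 bases before to 20 bases after the start, and capitals mark CACGTG. In *Ctsd* the motif begins at −245 and −98 from the start, and at the *Ctsa* start shown here, the downstream one of a pair, it begins at −12 and +6.
Ctss promoter, chr3:95526536-95526805, plus strand: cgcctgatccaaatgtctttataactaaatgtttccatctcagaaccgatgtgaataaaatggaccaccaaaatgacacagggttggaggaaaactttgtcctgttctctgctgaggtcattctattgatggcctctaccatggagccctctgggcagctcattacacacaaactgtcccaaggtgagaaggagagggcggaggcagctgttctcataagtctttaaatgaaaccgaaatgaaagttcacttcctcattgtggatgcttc
Ctsk promoter, chr3:95498960-95499229, plus strand: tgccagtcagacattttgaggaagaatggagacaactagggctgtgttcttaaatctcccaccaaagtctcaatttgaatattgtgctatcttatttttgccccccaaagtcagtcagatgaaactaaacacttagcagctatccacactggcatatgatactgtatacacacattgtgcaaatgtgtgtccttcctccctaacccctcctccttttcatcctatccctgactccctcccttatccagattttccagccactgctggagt
Ctsd promoter, chr7:142387808-142388077, minus strand: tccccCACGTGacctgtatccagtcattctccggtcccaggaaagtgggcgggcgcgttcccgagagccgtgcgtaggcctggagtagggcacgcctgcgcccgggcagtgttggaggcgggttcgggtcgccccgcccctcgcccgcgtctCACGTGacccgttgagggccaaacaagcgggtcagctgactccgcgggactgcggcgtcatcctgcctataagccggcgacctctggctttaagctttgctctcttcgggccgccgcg
Ctsa promoter, chr2:164833523-164833792, plus strand: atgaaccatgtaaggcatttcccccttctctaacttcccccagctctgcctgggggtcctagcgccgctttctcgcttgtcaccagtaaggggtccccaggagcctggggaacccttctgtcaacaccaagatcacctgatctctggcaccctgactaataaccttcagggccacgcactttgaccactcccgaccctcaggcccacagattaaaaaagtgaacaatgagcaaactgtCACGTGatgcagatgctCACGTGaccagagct

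Genes with exons that overlap a cathepsin on the opposite strand were read beside these results, because the sources used here do not say whether counting used the strand. They were chosen after their values were seen. *Pltp*, which overlaps *Ctsa*, went from 104 ± 14.2 to 366 ± 133 normalized counts (SD, n = 4 each; log2 fold change 1.74, adjusted p = 3.81e-05), that is, the same way as *Ctsa*. *Neurl2*, which also overlaps *Ctsa*, had a log2 fold change of −0.43 (adjusted p = 0.0205, 0.0533 without *mdx5cv* replicate 4, and 0.00875 to 0.702 over the alternatives). *Fdft1*, which overlaps *Ctsb*, moved the other way from it (−0.85, adjusted p = 0.00158). *Nelfcd*, which overlaps *Ctsz*, had a log2 fold change of 0.12 (adjusted p = 0.658). On the same strand, exons of *Gm49369* overlap *Ctsd* and exons of *Gm49230* overlap *Ctsl*. *Gm47123* overlaps *Ctsl* on the opposite strand. These 3 genes had 0 reads in every muscle. The part of all these neighbours in the values of *Ctsa*, *Ctsb*, *Ctsz*, *Ctsd* and *Ctsl* was not tested.

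The other 13 cathepsin genes of the list gave little signal. Only *Ctso*, a cysteine cathepsin of broad expression, passed the filter, at 91.5 ± 11.6 normalized counts in WT and 81.1 ± 11.3 in *mdx5cv* muscles (log2 fold change −0.17, adjusted p = 0.396). *Ctsw*, a cathepsin of cytotoxic lymphocytes, was at 0 to 2.19 in WT and at 5.40 to 8.49 in *mdx5cv* muscles, resting on at most 10 reads. *Ctsg* and *Ctse* had at most 5 reads in any library. The remaining 9 (*Ctsj*, *Ctsm*, *Ctsq*, *Ctsr*, *Cts3*, *Cts6*, *Cts7*, *Cts8* and *Ctsll3*), several of them placental, had 0 reads in every muscle. A count of 0 in a single library, taken alone, allows up to 3 reads there by counting error.

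Among 17 genes for inhibitors of cathepsins, 7 were tested, 5 were called higher and 1 lower, with a median log2 fold change of 0.77. The shares over all genes tested were 20.9% higher and 20.1% lower. *Serpinb1a*, a serpin that inhibits granule serine proteases including cathepsin G, rose from 20.99 ± 4.995 to 147 ± 20.01 normalized counts (SD, n = 4 each; log2 fold change 2.77, adjusted p = 8.06e-07). *Cd74*, the MHC class II invariant chain, which is cut by cathepsin S and one form of which inhibits cathepsin L, rose from 237 ± 96.3 to 1319 ± 299 (2.53, adjusted p = 7.52e-06). *Cstb*, the intracellular inhibitor cystatin B, rose from 30.7 ± 7.90 to 101 ± 37.4 (1.65, adjusted p = 0.000188). *Serpinb6a* rose as well (0.77, adjusted p = 0.000459). *Cst3*, the secreted inhibitor cystatin C and the most abundant cystatin here, was at 1668 ± 30.4 in WT and 1992 ± 159 in *mdx5cv* muscles (0.25, adjusted p = 0.0447). That call was lost when any muscle except *mdx5cv* replicate 4 was left out (adjusted p from 0.0586 to 0.129). It was also lost with TMM factors, edgeR, the replicate block, no variance trend, no filter and median centring, 13 of 19 alternatives in all (0.00027 to 0.244). *Cst6*, another secreted cystatin, fell by 0.60 on the log2 scale (adjusted p = 0.0105, from 0.00388 to 0.295 over the alternatives, the highest with equal totals). *Ctla2a*, a rodent inhibitor resembling a cathepsin propeptide, was at −0.50 (adjusted p = 0.157).

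Of 13 genes for the processing and sorting of lysosomal enzymes, 7 were called higher and 2 lower, with a median log2 fold change of 0.33. Over all genes tested these shares were 20.9% and 20.1%. The 2 called lower are not among the genes named here, whose estimates were all positive. *Lgmn*, legumain, an endopeptidase that converts several cathepsins to their mature form, was at 226 ± 43.9 normalized counts in WT and 1047 ± 365 in *mdx5cv* muscles (log2 fold change 2.17, adjusted p = 5.69e-06). *Psap*, prosaposin, a sphingolipid activator precursor that binds procathepsin D, rose by 0.69 (adjusted p = 0.000489). Of the partners of cathepsin A, *Glb1* (beta-galactosidase) rose by 1.57 (adjusted p = 0.000364). *Neu1* (neuraminidase 1) was at 0.16 (adjusted p = 0.399, from 0.0365 with equal totals to 0.729 over the alternatives), and the difference between them was not tested. Of the mannose 6-phosphate receptors, *M6pr* was at 0.33 (adjusted p = 0.0992, 0.0248 without WT replicate 2, and 0.00897 to 0.269 over the alternatives). *Igf2r* was at 0.28 (adjusted p = 0.0461), a call lost without WT replicate 1, 3 or 4 or without *mdx5cv* replicate 1, 3 or 4 (adjusted p up to 0.120). The same 6 other alternatives ended this call too, 12 of 19 in all (0.00242 to 0.175).

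The other acid hydrolases gave 20 called higher and 1 lower of 27, with a median log2 fold change of 0.80. Over all genes tested 20.9% were called higher and 20.1% lower. The 1 hydrolase called lower is not among those named here. *Gusb* (beta-glucuronidase) rose by 1.68 (adjusted p = 0.000105) and *Hexa* (a hexosaminidase subunit) by 0.83 (adjusted p = 0.000733). *Tpp1*, a lysosomal tripeptidyl peptidase, was at 0.19 (adjusted p = 0.147, from 0.0020 with equal totals to 0.499 over the alternatives). *Gaa*, the acid alpha-glucosidase, was at −0.15 (adjusted p = 0.573). It passed the threshold without WT replicate 2 (adjusted p = 0.0110, the lowest of a range that reached 0.977), and with equal totals its log2 fold change was 0.20. Among the TFEB relatives, *Tfe3* rose by 0.63 (adjusted p = 0.00533), whereas *Tfeb* was at −0.34 (adjusted p = 0.0252) and *Mitf* at −0.31 (adjusted p = 0.0341). Both negative values turned slightly positive with equal totals (0.01 and 0.05). The *Tfeb* call was also lost without WT replicate 2 or 3 or *mdx5cv* replicate 3 or 4 (adjusted p up to 0.0679), and the *Mitf* call without WT replicate 1 or *mdx5cv* replicate 1, 2 or 3 (up to 0.0994). The *Tfeb* call was also lost with no variance trend, and the *Mitf* call with no variance trend, no filter and the replicate block. Over all alternatives the adjusted p of *Tfeb* ranged from 0.00972 to 0.930 and that of *Mitf* from 0.00823 to 0.794. *Tfec* was too low to test, at 0 to 2.19 normalized counts in WT and 9.91 to 22.4 in *mdx5cv* muscles.

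Granule serine proteases, several of which cathepsin C activates, were measured at low levels. Of 7 such genes, 3 were tested and 1 was called higher, *Mcpt4*, a mast cell chymase (log2 fold change 1.04, adjusted p = 0.0258). Its groups overlapped, and the call was lost without WT replicate 1 or 3 or without *mdx5cv* replicate 2 or 4 (adjusted p from 0.0689 to 0.0765, and from 0.00363 over all alternatives). *Cma1* (0.74, adjusted p = 0.0617) and *Tpsb2* (1.09, adjusted p = 0.0563) missed the threshold. *Cma1* passed it with equal totals and with no variance trend (adjusted p 0.0168 to 0.164 over all alternatives). *Tpsb2* passed it with a pseudocount of 10, equal totals, the replicate block or without WT replicate 2 or 4 (adjusted p 0.0181 to 0.144 over all alternatives). *Gzma* and *Gzmb*, granzymes of cytotoxic lymphocytes, had at most 6 reads in any library, and *Elane*, neutrophil elastase, had 0.

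**Figure D5:**
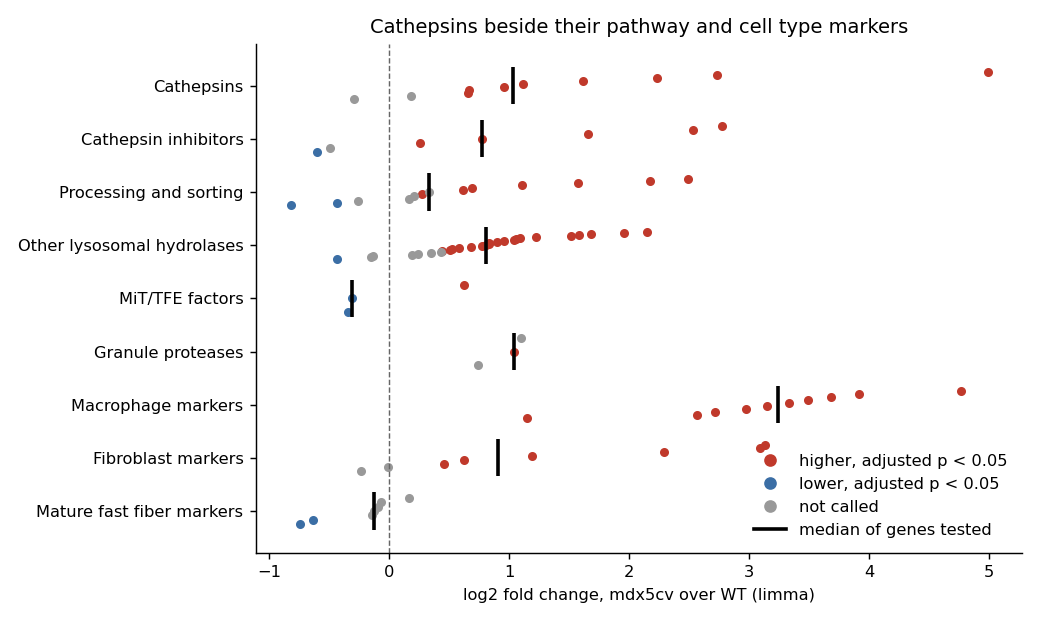
Log2 fold change of *mdx5cv* against WT (horizontal axis) for the tested genes of each list (rows), one point per gene, with the list median as a bar. The cathepsins have a median of 1.03, other acid hydrolases 0.80, inhibitors 0.77, and macrophage markers 3.24.

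Markers of cell types that make cathepsins moved in the same muscles. All 10 macrophage markers were higher (median log2 fold change 3.24), and their summed normalized count was 590 to 909 in WT and 4510 to 10818 in *mdx5cv* muscles. The *mdx5cv* muscles stood in the same order for this sum as for *Ctss*, *Ctsb*, *Ctsh*, *Ctsc* and the uncalled *Ctsd*, with replicate 4 first and replicate 3 last. The sum of all 7 neutrophil markers gave this order as well. By the median log2 deviation from the WT mean, the macrophage markers put replicate 2 (3.05) above replicate 1 (2.99), another order. *Ctsk* and *Ctsa* stood in the order of the fibroblast sum. *Ctsz* and *Ctsl* stood in that of the regenerating fiber and osteoclast sums, and *Ctsf* in that of the mature fast fiber sum. These orders were not tested. Of 8 fibroblast markers, 6 were higher (median 0.91). The 3 collagens among them, *Col1a1* (3.13), *Col3a1* (3.09) and *Col1a2* (2.29), summed to 2919 to 4386 normalized counts in WT and 18565 to 37039 in *mdx5cv* muscles. The other 5 summed to 2491 to 5819 and 3315 to 4376, which overlapped, and *Dcn* had the highest counts among them (means 3090 and 2488). *Lum* (278 ± 91.0 and 622 ± 155 normalized counts, SD, n = 4 each) and *Pdgfra* (355 ± 39.0 and 546 ± 39.5) were called higher without overlap of the groups. *Dpt* (192 ± 44.1 and 261 ± 34.1) was called higher with overlap, and its call was not kept in every alternative. Not called were *Dcn* at −0.24 (adjusted p = 0.425, from 0.0436 without WT replicate 4 to 0.957 over the alternatives) and *Pi16* at −0.01 (adjusted p = 0.977). Of 6 osteoclast markers, *Atp6v0d2* (log2 fold change 5.96) and *Acp5* (3.50) were higher. The others of this list were too low to test, at most at 13.2 normalized counts. *Dcstamp* was at 0 to 4.39 in WT and 5.40 to 11.2 in *mdx5cv* muscles, without overlap, whereas *Ocstamp* (means 2.45 and 6.64), *Calcr* (4.66 and 7.16) and *Oscar* (0.818 and 1.37) overlapped. All 6 regenerating fiber markers were higher, at a sum of 198 to 229 in WT and 2514 to 9398 in *mdx5cv* muscles. Of 7 neutrophil markers only *Csf3r* could be tested (2.88), and *Retnlg* had 0 reads. The other 6 summed to 2.12 to 7.68 in WT and 1.85 to 6.60 in *mdx5cv* muscles, and none of them separated the groups. T and NK cell markers had at most 9 reads each, with sums of 1.10 to 3.18 and 19.5 to 28.8. Of 5 mast cell markers *Kit* was called higher (0.75), with sums of 35.5 to 51.6 and 56.5 to 95.9. The part of these cell types in the cathepsin values was not tested.

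The genes whose profile over the 8 muscles was most like that of each cathepsin were found among 7631 genes whose normalized counts averaged 100 or more, by the smallest root mean square difference of log2 values, each gene centred on its own mean. For *Ctss* they were *Mpeg1* (0.277), *Dclk1* and *Gpnmb* (0.322 each), and for *Ctsk* they were *Col5a2* (0.261), *Col1a2* (0.307) and *C1qc* (0.323). *Ctsh* was nearest to *Wdfy4* (0.147), *Inpp5d* (0.181) and *Ccdc141* (0.220), and *Ctsz* to *Atp2a2* (0.113), *Actn1* (0.171) and *Sh3bgrl3* (0.177). *Ctsb* was nearest to *Sdc3* (0.0963), *Dock10* (0.106) and *Adgre5* (0.108), and *Ctsl* to *Macf1* (0.0643), *Phka2* (0.0993) and *Rin2* (0.101). For *Ctsc* they were *Mob1a* (0.0618), *Zeb2* (0.0636) and *Itgav* (0.0790), and for *Ctsa* they were *Rasa3* (0.0685), *Vwa5a* (0.0816) and *Lamp2* (0.0830). *Ctsd* was nearest to *Ifi27* (0.0527), *Esd* (0.0655) and *Smchd1* (0.0813), and *Ctsf* to *Osbpl9* (0.0458) and *Chmp7* (0.0525). These distances share the libraries and mostly follow the size of the group difference.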

How the data were processed

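RNA-seq of 8 TA muscles was analysed, and samples were grouped by the genotype and number in their titles. Each deposited value is a signal: the reads of a gene, scaled by one size factor per library, for every gene without a filter. The submitters' processing notes name FastQC, Trim Galore 0.6.4, STAR 2.6.0c, SAMtools 1.9, featureCounts, MultiQC 1.6, DESeq2 1.26.0, R 3.6.2 and mm10. The annotation is not given in the sources used here, and 55141 gene IDs of the table are in GENCODE M21, which gave the coordinates and lengths. Dividing each column by its value for 1 read gave whole reads for 100% of values (within 0.01 reads). Replicates differed by a chi-square of 9.1 to 41.5 per degree of freedom, so each was counted as its own sample.

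The main test was that of limma (version 3.58.1, under R 4.3.3), run on values transformed as log2(normalized count + 1), which understates the change of low genes. The fit covered the 13677 genes whose normalized counts averaged 10 or more, with a variance trend, no covariate, two-sided tests and Benjamini-Hochberg adjustment over all of them. A call is an adjusted p under 0.05. edgeR 4.0.16 and DESeq2 1.42.0 on the recovered reads were alternatives, with other pseudocounts, filters and scalings, the replicate number as a block and each muscle left out. An exon length from the longest principal transcript, these alternatives for genes other than the 10 cathepsins, and pairs of cathepsins with 1 muscle left out, were added after the data were seen. The fits were tested on simulated counts. Permutation tests were run with scipy 1.17.1 and figures drawn with matplotlib 3.10.9, under Python 3.11.15 (pandas 2.3.3, numpy 2.4.6).

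The cathepsins, the other lists and the tests were chosen with earlier results of these data known. The naming rule took all 10 cathepsins, *Dmd*, the genes of the fixed lists (a set few of the sorting and hydrolase genes) and the 3 most similar genes of each cathepsin, of which some items are not reported here.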

Additional observations from a re-analysis of the deposited data

Results flagged for a closer look

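Sets of 4 muscles were screened for one value far from the rest, 36 in all, of which 6 had one and about 1.8 would by chance. On the scale of log2(normalized count + 1), *Ctsb* in WT replicate 2 was at 11.62 (other WT muscles 11.22 to 11.28) and *Ctsz* in the same muscle at 6.90 (7.57 to 7.60). As medians of log2 deviations from the WT mean, the fibroblast markers of WT replicate 2 were at 0.40 (other WT muscles −0.14 to −0.11) and the neutrophil markers of WT replicate 1 at −0.19 (the others at 0.00). In *mdx5cv* muscles, the mature fast fiber markers of replicate 4 were at −0.55 (others 0.03 to 0.11) and the T and NK cell markers of replicate 1 at 1.51 (others 2.20 to 2.32). The neutrophil and the T and NK cell values lie near the floor. At most 10 reads in any library were found for 6 of 7 neutrophil markers and for all 7 T and NK cell markers.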

How the results depend on the processing

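No cathepsin called higher lost its call under any of the 19 alternatives run, and 187 of 190 fold changes of cathepsins kept their direction and their side of the threshold. Equal totals turned *Ctsf* to 0.065, *Ctso* to 0.18, *Tfeb* to 0.014, *Mitf* to 0.048, *Gaa* to 0.20, *Dcn* to 0.12 and *Pi16* to 0.35, and took cathepsins with at least a doubling to 8, all genes called higher to 5444 and lower to 820, and higher genes with a doubling to 2256. Centring on the median called 1 cathepsin lower (*Ctsf*, −0.39, adjusted p = 0.0372). Higher genes with a doubling came to 2202 without a filter and to 729 with at least 10 normalized counts in every sample, out of more and fewer genes tested. Leaving out single muscles gave 8 to 8 cathepsins called higher, 0 to 0 lower and 4 to 6 with a doubling. Over all genes it gave 2426 to 2853 higher, 2248 to 2625 lower and 1216 to 1470 higher with a doubling. For *Nelfcd* it gave −0.13 to 0.23, the lower value without WT replicate 2, and for *Pi16* −0.17 to 0.14, above 0 without WT replicate 2 (0.14) or 3 (0.051) or *mdx5cv* replicate 1 (0.081) or 4 (0.056). Of 40 genes read with a fitted value besides the cathepsins, 19 changed call or direction somewhere. Replicate numbers were not treated as pairs, and deviations of same-numbered muscles from their group means correlated weakly (0.050, 0.031, 0.072 and 0.146). For replicates 3 and 4 this exceeded the highest correlation with another number (0.038 and 0.0059), and for 1 and 2 it did not (0.074 and 0.058). With the replicate block 8 cathepsins were called higher and 0 lower. The block ended the calls of *Cst3* (adjusted p = 0.0587), *Igf2r* (0.0542) and *Mitf* (0.0524), passed *Tpsb2* (0.0299) and changed no other call among the genes named with a fitted value. The pairs whose changes differed were 38 with either pseudocount. *Ctsg* and *Ctse* were below the filter of the main test, so a difference was not tested for them. The cause of the changed calls was not tested, beyond the number of genes or samples each alternative holds.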
